A study of Mus musculus with 10 samples.

Results

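Nrk, Bex1, Krt18, Ttc9, Fat3, Timp4, Maob and Ppp1r1a are 8 of the 19938 genes measured in mouse hindlimb muscle after knockdown of the long non-coding RNA linc-MYH or in mice with the conditional knockout cSix1 KO. They were selected on measured values of this series: a large mean log2 change between tibialis anterior (TA) fibers given an shRNA against linc-MYH and fibers given the control vector, together with a smaller or opposite change between gastrocnemius of cSix1 KO and of control mice. Both contrasts therefore chose these genes, and the values of the 8 genes are given as a description, with no test. The expression values came from 10 Mouse Gene 1.0 ST arrays of Affymetrix, 1 per muscle sample, on which each probe set gives 1 log2 signal.

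TA muscles of C56BL6N mice (the spelling of the labels, C57Bl6 in the methods), 8 weeks old per the labels, received 10 µg of an shRNA vector by electroporation, and fibers carrying GFP were dissected 2 weeks later. The shlincMYH group had 2 arrays and the control vector group 2 arrays. The methods describe the control vector as an shRNA against LacZ placed in the TA of the opposite leg, so that every TA array came from electroporated muscle. The gastrocnemius samples were 3 arrays of cSix1 KO mice and 3 arrays of wild type control mice, all C56BL6N and 8 weeks old per the labels. The cSix1 KO mice carry a floxed gene and HSA-CRE: the human skeletal actin promoter drives CRE in skeletal muscle fibers, so the deletion is limited to fibers and is not made in vessels or connective tissue. The methods say that the transfected muscles of a condition belonged to different mice, but neither source ties an array to a mouse, and nothing says so for the gastrocnemius arrays. Each gastrocnemius group held arrays of 2 kinds by Xist and Y-linked signal, described below, so its arrays cannot all come from 1 mouse. Whether the arrays of the same kind came from different mice is not stated, and the spread between them may be technical.

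Skeletal muscle fibers are long multinucleated cells whose signals, contraction and metabolism are tuned by kinases, phosphatases and the cytoskeleton, and which lie among vessels and connective tissue whose matrix is held in balance by metalloproteinases and their inhibitors. The 4 genes that were higher with shlincMYH do different work. Nrk is a germinal center kinase that activates the JNK cascade, and Bex1 is a small X-linked adaptor protein that binds the neurotrophin receptor Ngfr and is induced in regenerating muscle. Krt18 is the type I keratin of simple epithelia and the partner of Krt8, and Ttc9 is a small protein with tetratricopeptide repeats. Among the 4 that were lower, Fat3 is a giant atypical cadherin, Timp4 an inhibitor of matrix metalloproteinases, Maob an enzyme of the outer mitochondrial membrane that oxidizes amines, and Ppp1r1a the inhibitor-1 of protein phosphatase 1, which blocks the phosphatase once protein kinase A has phosphorylated it.

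The shRNA target is shown because every TA comparison rests on it. It lies in linc-MYH, annotated as 2310065F04Rik at chr11:67112461-67120080 of GRCm38.p6, and is printed 5′ to 3′ as a DNA sequence.
shRNA target in linc-MYH: ttctgctcaccacctacaatt

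No probe set named for linc-MYH alone was analysed here, and the knockdown and the deletion were not checked in these values.

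MEF3 is an element of muscle gene promoters, and a promoter was taken as the 250 bases before and 50 bases after a transcript start (RefSeq, GRCm38.p6). Of the 8 genes, 6 were matched to such a window. The transcript start was the outer end of the annotated gene in 4 of them, and lay 199 bases inside it in Nrk and 627 bases inside it in Fat3. A simplified pattern for MEF3, GNAANNTNA, was searched on both strands. It was found in 3 of the 6, in Bex1, Ttc9 and Fat3, and in 40.1% of the 32544 windows in all. The pattern is not the study's matrix of base frequencies for MEF3, and it misses some sites that the study tested. All 3 matches hold bases that are rare at some positions of that matrix. These 3 windows are shown because they are the ones that match the pattern, and the match is in capitals. They are from Bex1 (chrX:136215464-136215763, minus strand), Ttc9 (chr12:81630999-81631298, plus strand) and Fat3 (chr9:16502005-16502304, minus strand).
Bex1: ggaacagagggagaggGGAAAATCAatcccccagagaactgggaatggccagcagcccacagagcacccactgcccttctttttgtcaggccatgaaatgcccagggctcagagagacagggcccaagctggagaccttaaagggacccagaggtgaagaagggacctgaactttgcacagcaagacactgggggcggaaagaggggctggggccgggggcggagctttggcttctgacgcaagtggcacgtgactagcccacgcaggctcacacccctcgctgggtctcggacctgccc
Ttc9: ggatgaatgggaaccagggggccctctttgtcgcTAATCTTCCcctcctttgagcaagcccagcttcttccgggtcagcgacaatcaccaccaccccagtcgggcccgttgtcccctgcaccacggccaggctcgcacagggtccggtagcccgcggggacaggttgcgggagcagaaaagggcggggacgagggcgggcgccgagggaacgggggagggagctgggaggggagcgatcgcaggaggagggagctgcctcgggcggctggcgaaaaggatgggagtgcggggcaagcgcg
Fat3: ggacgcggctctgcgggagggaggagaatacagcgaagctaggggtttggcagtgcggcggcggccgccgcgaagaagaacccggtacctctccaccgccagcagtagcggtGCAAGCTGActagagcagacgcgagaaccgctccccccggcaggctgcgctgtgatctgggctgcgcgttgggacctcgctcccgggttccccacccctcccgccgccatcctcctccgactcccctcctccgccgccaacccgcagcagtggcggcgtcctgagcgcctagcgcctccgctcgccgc

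Counted from that transcript start, the match began at position -234 in Bex1, on the strand printed, at -216 in Ttc9, on the opposite strand, and at -138 in Fat3, on the strand printed. The E-box letters CANNTG, bound by myogenic regulators such as MyoD, were in the windows of Nrk, Bex1, Krt18 and Timp4, against 72.3% of all windows. The GC box GGGCGG was in those of Nrk, with 4 matches, Bex1, with 2, and Ttc9, with 3, against 35.9% of all windows, and TATAAA was in none of the 6, against 13.6%. The GC content was between 53.3% in Timp4 and 74.7% in Nrk, where the median window has 53.0%. A match is a description of letters and not a binding site.

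Several measured facts about the arrays bear on all values below. The 4 TA arrays had median signals of 5.09 to 5.14 and the 6 gastrocnemius arrays of 6.60 to 6.67, so that levels were compared only within a muscle. Over all genes, limma called 3 genes higher and 0 lower in TA at an adjusted p under 0.05, or 0.015% of the genes tested (1724 genes had an unadjusted p under 0.05), and 181 higher and 166 lower in gastrocnemius, or 1.74%. Xist, the RNA that silences one X chromosome in females, had a signal of 11.55, 10.17 and 5.06 in control replicates 1, 2 and 3 of the gastrocnemius and of 11.62, 11.65 and 5.04 in cSix1 KO replicates 1, 2 and 3. The Y-linked gene Eif2s3y had the opposite pattern, at 3.66, 3.66 and 9.42 in the controls and 3.70, 3.72 and 9.05 in the cSix1 KO arrays, while all 4 TA arrays had Xist at 3.27 to 3.58 and Eif2s3y at 7.72 to 8.21. The labels give no sex. Each gastrocnemius group thus held 2 arrays with high Xist and 1 with high Y-linked signal, and the gastrocnemius changes of the 8 genes are given below also within each kind of array.

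Nrk had the smallest spread of the 4 higher genes in TA. Its log2 signal was 3.83 and 3.89 in the 2 control vector arrays and 6.04 and 5.86 in the 2 shlincMYH arrays. Both shlincMYH arrays lay above both controls, and the gap was far wider than the spread within either group. The means were 3.86 ± 0.04 and 5.95 ± 0.13 (SD, n = 2 each), a change of 2.09 or 4.25-fold, the 7th highest of all genes in TA. The control mean was at the 18.2 percentile of all genes, and whether it was above background was not tested, so the fold depends on a low signal. In gastrocnemius, where the control mean was at the 21.8 percentile, the signal was 5.26, 5.40 and 5.51 in the controls and 5.51, 5.47 and 5.79 in the cSix1 KO arrays. The groups overlapped there, with a change of 0.20, of 0.16 among the arrays with high Xist and of 0.28 in the pair with high Y-linked signal.

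Bex1 had the largest TA change of the 8 genes. Its signal was 6.56 and 7.11 with the control vector and 9.52 and 9.06 with shlincMYH. The groups did not overlap, although both differed more between replicates than most genes did. The means were 6.83 ± 0.39 and 9.29 ± 0.32 (SD, n = 2 each), a change of 2.46 or 5.49-fold, ranked 5th from the highest. In gastrocnemius Bex1 was 7.97, 7.80 and 7.55 in the controls and 8.02, 7.91 and 6.89 in the cSix1 KO arrays. The 2 arrays with high Y-linked signal, replicate 3 of each group, were the lowest of their groups. The sign was set by cSix1 KO replicate 3 alone: the change was -0.16 over all arrays and 0.20 without that replicate. It was 0.08 among the arrays with high Xist and -0.66 in the pair with high Y-linked signal. A further probe set, which carries the symbols of both Bex4 and Bex1 and cannot tell them apart, was 2.78 and 3.12 with the control vector and 3.39 and 3.22 with shlincMYH, a change of 0.35, and its change in gastrocnemius was -0.09.

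Krt18 had a signal of 5.05 and 4.59 with the control vector and of 6.30 and 6.71 with shlincMYH. Both shlincMYH arrays were above both controls, and the means of 4.82 ± 0.32 and 6.51 ± 0.29 (SD, n = 2 each) differed by 1.69, or 3.23-fold. In gastrocnemius the control arrays lay within 0.05 of each other, at 6.66, 6.61 and 6.62, and the cSix1 KO arrays were at 6.86, 6.84 and 6.69. All 3 cSix1 KO arrays were higher, by 0.17 on average, 0.21 among the arrays with high Xist and 0.07 in the other pair. That change was in the same direction as in TA and a small part of its size.

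Ttc9 was the only one of the 4 higher genes with a change over 0.5 in gastrocnemius. In TA its signal was 5.29 and 4.57 with the control vector and 6.74 in both shlincMYH arrays. The 2 shlincMYH values were alike and the 2 controls were 0.72 apart, a wider control range than in 98.4% of genes, so the change of 1.81, or 3.51-fold, moved to 1.45 without control replicate 2 and to 2.17 without control replicate 1. In gastrocnemius the signal was 9.11, 8.36 and 9.18 in the controls and 10.11, 9.93 and 9.27 in the cSix1 KO arrays. Control replicate 2 was low and cSix1 KO replicate 3 was barely above the highest control. The change was 0.89, or 1.85-fold, made up of 1.28 among the arrays with high Xist and of 0.09 in the pair with high Y-linked signal.

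**Figure D1:**
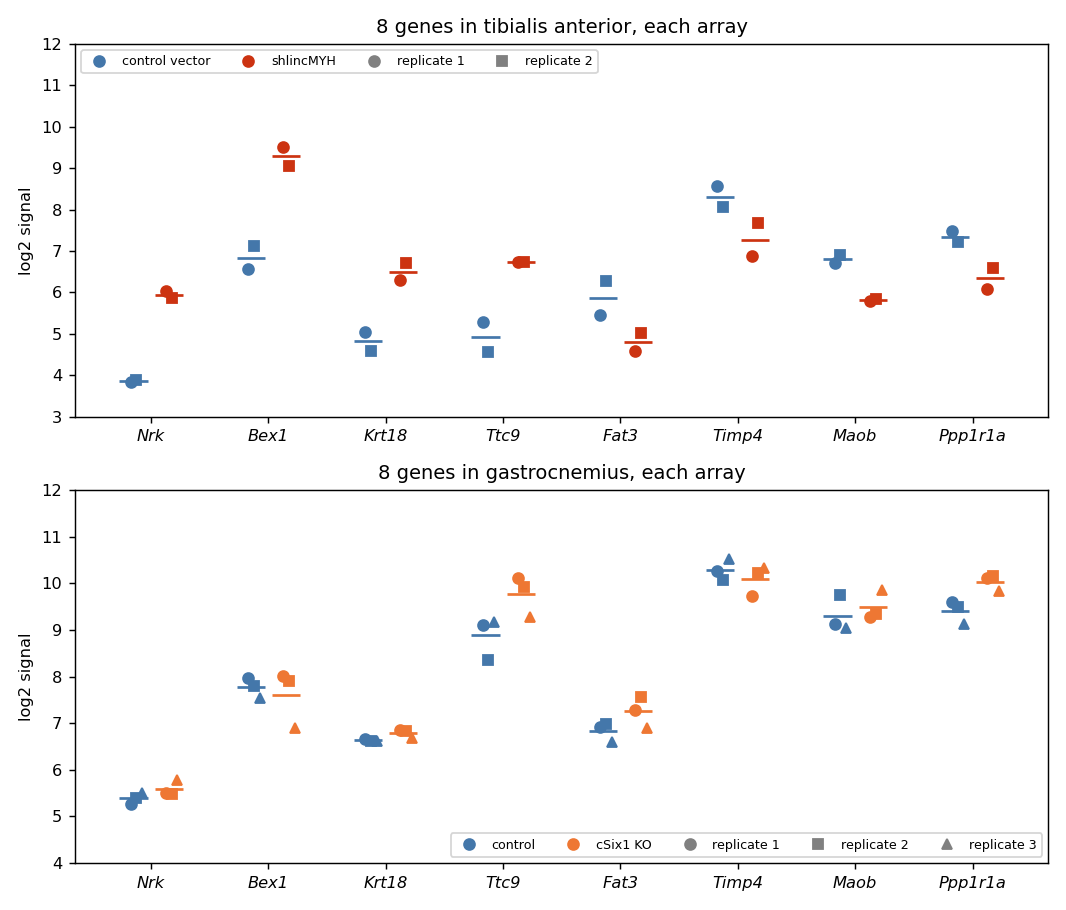
Log2 signal of the 8 genes in each array of tibialis anterior (top, 2 control vector and 2 shlincMYH arrays) and gastrocnemius (bottom, 3 control and 3 cSix1 KO arrays); points are arrays, with a shape for each replicate number, and lines are group means. In TA the groups of all 8 genes are apart, while in gastrocnemius only Krt18, Ttc9 and Ppp1r1a have all cSix1 KO arrays above all controls.

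Fat3 was represented by 15 probe sets, and the values of a gene with several were taken from the probe set brightest over all arrays. That probe set was 5.45 and 6.28 with the control vector and 4.58 and 5.03 with shlincMYH. The controls were 0.83 apart and the shlincMYH arrays 0.45 apart, and both shlincMYH arrays were below both controls. The change was -1.06, a 2.09-fold lower signal, ranked 5th from the lowest, and it was -0.65 without control replicate 2 and -1.48 without control replicate 1. In gastrocnemius the same probe set was 6.91, 6.99 and 6.59 in the controls and 7.29, 7.57 and 6.90 in the cSix1 KO arrays. The change was 0.43, with replicate 3 the lowest of each group. It was 0.48 among the arrays with high Xist and 0.31 in the pair with high Y-linked signal.

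The other Fat3 probe sets moved less. In TA 14 of the 15 were below 0, with changes from -1.06 to 0.01 and a median of -0.24, but only 3 had both shlincMYH arrays below both controls. In 12 of the 15, control replicate 2 was above control replicate 1. The mean over the 15 probe sets was -0.30 in TA and 0.17 in gastrocnemius, where 14 were above 0 and the range was -0.02 to 0.43. The 3 lowest changes in TA were -1.06, -0.74 and -0.72, and for the probe set at -0.74 the shlincMYH arrays were far apart, at 3.78 and 5.46. Fat3, at chr9:15910189-16502681, spans 592493 bases and is the longest of the 8 genes. The positions of its probe sets within it were not analysed here.

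**Figure D2:**
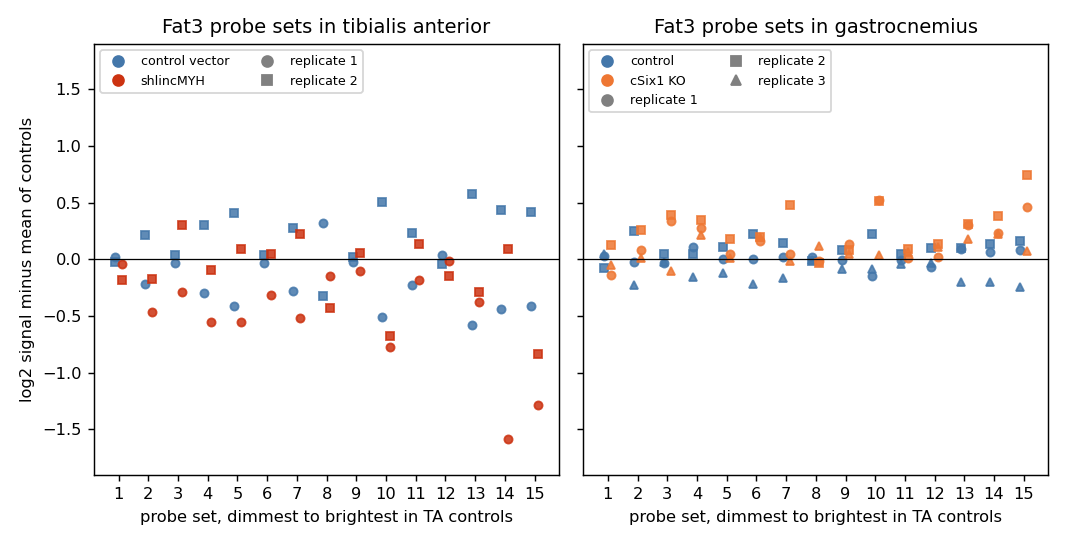
Log2 signal of each of the 15 Fat3 probe sets minus the mean of the control arrays, ordered from the dimmest to the brightest in TA controls, in TA (left) and gastrocnemius (right); points are arrays, with a shape for each replicate number. The brightest probe set has the lowest change in TA, -1.06, and most of the others have shlincMYH arrays among the controls.

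Timp4 was lower with shlincMYH by an amount that depended on which array was read. Its signal was 8.56 and 8.07 with the control vector and 6.88 and 7.67 with shlincMYH. The groups did not overlap, but the 2 shlincMYH arrays were 0.79 apart, and the change of -1.04, a 2.05-fold lower signal, was -0.64 without shlincMYH replicate 1 and -1.43 without shlincMYH replicate 2. In gastrocnemius the signal was 10.27, 10.07 and 10.53 in the controls and 9.73, 10.22 and 10.33 in the cSix1 KO arrays. The groups overlapped and the change was -0.20, with -0.19 among the arrays with high Xist and -0.20 in the other pair. Without cSix1 KO replicate 1 it was -0.02.

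Markers of endothelial cells were also lower in the TA arrays with shlincMYH. All 9 endothelial genes measured were lower in the shlincMYH arrays, with a median change of -0.66 (all genes, -0.03), and 0 of the 9 were called. Their mean log2 signal was 6.92 and 6.90 in the control vector arrays and 6.02 and 6.61 in the shlincMYH arrays. The array with the lowest endothelial mean was also the one with the lowest Timp4, and the order of the 4 arrays was the same for both. The choice of Timp4 as a lower gene fixed its order between the groups. The endothelial means of the controls, 6.92 and 6.90, were nearly equal, so their order carries little weight. In gastrocnemius the endothelial median change was -0.00, and control replicate 3 had the highest endothelial mean, 9.46, and the highest Timp4. The order did not hold there throughout: cSix1 KO replicate 1, with the lowest Timp4, had an endothelial mean of 9.17, above the 9.09 and 9.05 of control replicates 1 and 2. Smooth muscle and pericyte markers were also below 0 in TA in 5 of 5, with array means of 6.79 to 7.62 in the controls and 6.53 to 6.91 with shlincMYH. Pecam1, the adhesion molecule of endothelial junctions, was at 7.66 and 7.49 against 6.46 and 7.02 in TA. Other markers were dimmer, such as Tie1 at 5.79 and 5.58 against 5.02 and 5.61, near the TA array medians of 5.09 to 5.14. Whether the markers were above background was not tested. In bulk samples, fewer cells of a type and less RNA per cell cannot be told apart, and the part of endothelial cells in the Timp4 values was not tested.

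**Figure D3:**
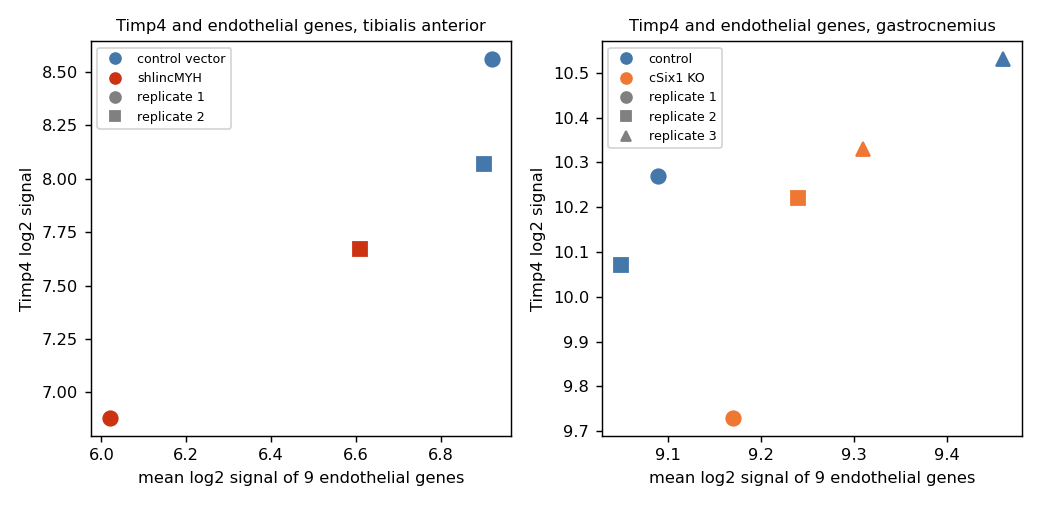
Timp4 log2 signal against the mean log2 signal of 9 endothelial marker genes in each array of TA (left) and gastrocnemius (right); points are arrays, with a shape for each replicate number. In TA the shlincMYH arrays are lowest on both axes (6.02 and 6.61 for the endothelial mean), and in gastrocnemius the groups overlap on both.

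Maob had the smallest spread of the 4 lower genes in TA. Its signal was 6.72 and 6.91 with the control vector and 5.79 and 5.83 with shlincMYH. The shlincMYH arrays were 0.04 apart and both were below both controls, with means of 6.81 ± 0.13 and 5.81 ± 0.03 (SD, n = 2 each) and a change of -1.01, a 2.01-fold lower signal. In gastrocnemius the signal was 9.12, 9.75 and 9.04 in the controls and 9.27, 9.35 and 9.86 in the cSix1 KO arrays. Control replicate 2 and cSix1 KO replicate 3 stood above the other 4 arrays, the groups overlapped, and the change was 0.19. It was -0.12 among the arrays with high Xist and 0.82 in the pair with high Y-linked signal.

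Ppp1r1a was lower with shlincMYH and higher in cSix1 KO, without overlap in either muscle. In TA its signal was 7.48 and 7.21 with the control vector and 6.08 and 6.60 with shlincMYH. Both shlincMYH arrays were lower, and the change was -1.0, a 2.0-fold lower signal. In gastrocnemius the signal was 9.61, 9.49 and 9.13 in the controls and 10.12, 10.15 and 9.83 in the cSix1 KO arrays. All 3 cSix1 KO arrays were above all 3 controls, by 0.63 or 1.54-fold, with 0.58 among the arrays with high Xist and 0.70 in the other pair. Its 2 within-kind values were closer to each other than those of Ttc9 (1.28 and 0.09) or Fat3 (0.48 and 0.31). Those of Timp4 (-0.19 and -0.20) were closer still, and those of Nrk (0.16 and 0.28) about as close. The value for high Y-linked signal rests on 1 array of each group.

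**Figure D4:**
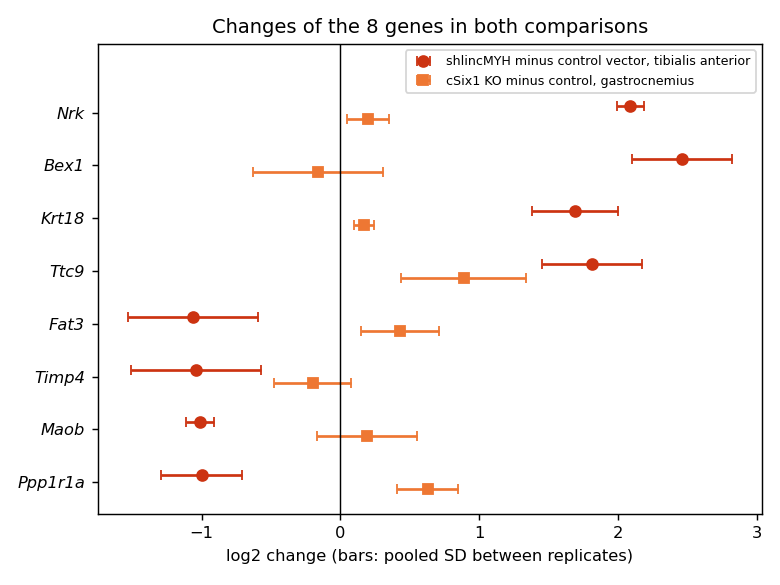
Log2 change of the 8 genes for shlincMYH minus control vector in TA (circles) and for cSix1 KO minus control in gastrocnemius (squares); bars are the pooled SD between replicates. The TA changes run from -1.06 to 2.46 and the gastrocnemius changes from -0.20 to 0.89.

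As the choice of genes fixes, the 4 higher and the 4 lower genes in TA were all without overlap between the groups, where 16.3% of all genes were higher and 23.0% lower without overlap. In gastrocnemius 3 of the 8, Krt18, Ttc9 and Ppp1r1a, were higher without overlap and 0 were lower, against 11.0% and 9.85% of all genes. At the edge of the choice the smallest of the 8 changes in TA was that of Ppp1r1a, -1.0. In TA 9 of the 19938 genes (0.0451%) were at least 2-fold lower and 57 (0.286%) at least 2-fold higher. The median gap between the 2 control vector arrays was 0.15 over all genes. Of the 8 genes only Nrk, with 0.06, was below it, and the other gaps were 0.19 to 0.83.

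Nrk, Bex1 and Maob, 3 of the 8 genes, lie on the X chromosome, which carries 3.73% of the 19916 genes with a position. Nrk lies at chrX:138914231-139010532, Bex1 at chrX:136213972-136215513 and Maob at chrX:16709281-16817366 of GRCm38.p6. Krt18 and Ppp1r1a share chromosome 15, at chr15:102028216-102032026 and chr15:103530279-103538027. Ttc9 lies at chr12:81631249-81667557 and Timp4 at chr6:115244444-115252205. Since all TA arrays had low Xist and high Y-linked signals, the TA changes of the X-linked genes were measured in arrays of 1 kind.

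The relatives of Bex1 hold 1 of the 2 calls in the difference between the comparisons among the genes related to the 8. The Bex genes and the Tceal genes, which encode related small adaptor-like proteins of transcription elongation factor A-like type, form a cluster on the X chromosome around Bex1. Tceal5, the nearest measured gene to Bex1 at a distance of 10088 bases, was 7.12 and 7.30 with the control vector and 8.57 and 8.26 with shlincMYH. Both shlincMYH arrays were above both controls, by more than the spread within either group. In gastrocnemius Tceal5 was 6.38, 6.33 and 6.47 in the controls and 6.49, 6.48 and 6.40 in the cSix1 KO arrays, and the groups overlapped. The change of 1.21 in TA exceeded that of 0.07 in gastrocnemius by 1.14 ± 0.15 (SE), and limma called the difference (adjusted p = 0.0193). The TA change on its own was not called (adjusted p = 0.15 in limma).

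Of the 10 measured Bex, Tceal and Ngfr genes other than Bex1, 7 were above 0 in TA, with a median change of 0.25 (all genes, -0.03), and 0 were called there or in gastrocnemius, where the median was 0.05. In the difference between the comparisons 1 of the 10 was called, Tceal5, where 0.145% of all genes were. Tceal8, next beyond Tceal5, was 7.07 and 7.13 against 8.00 and 7.48 in TA, and Tceal1 was 6.25 and 7.16 against 7.60 and 7.38. Neither overlapped and neither was called, with changes of 0.64 and 0.79. On the other side of Bex1, Tceal9 had a change of 0.35 and Bex3 of -0.09. Bex2, a close relative of Bex1, was 2.75 and 3.09 against 3.15 and 3.52, and the receptor gene Ngfr had a change of 0.16. Near-identical members of such families can share probes, and this was not checked here.

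The 4 inhibitors of metalloproteinases did not share a direction in TA. Timp2, which both inhibits metalloproteinases and helps to activate Mmp2, was 7.55 and 7.62 with the control vector and 8.54 and 8.48 with shlincMYH. The arrays of each group lay close together and the groups did not overlap. The change of 0.92 in TA exceeded that of 0.09 in gastrocnemius by 0.84 ± 0.11 (SE), a difference limma called (adjusted p = 0.0193). In TA alone the adjusted p was 0.148 in limma, with a t statistic of 7.95 against 7.49 for the difference. Timp3, the matrix-bound inhibitor, was 8.86 and 8.80 with the control vector and 7.92 and 8.12 with shlincMYH, lower without overlap, as was Timp4. Its change of -0.81 was not called, nor was its difference from gastrocnemius, -0.77 (adjusted p = 0.0612 in limma). Timp1 was spread wide, at 5.63 and 4.74 against 5.70 and 5.35 in TA, and its gastrocnemius change of 0.86 came from cSix1 KO replicate 1, at 8.99 where the other 5 arrays were between 6.36 and 6.98. Of the 14 metalloproteinases and inhibitors measured besides Timp4, 6 were above 0 in TA and 13 in gastrocnemius, with medians of -0.05 and 0.20, and none was called in either muscle. In gastrocnemius the macrophage markers were above 0 in 5 of 5, with a median of 0.73 and array means of 7.42 to 7.70 in the controls and of 8.76, 8.02 and 7.91 in cSix1 KO replicates 1, 2 and 3. The fibroblast markers were above 0 in 6 of 6, with a median of 0.32 and array means of 10.35 to 10.67 in the controls and 10.80 to 10.88 in cSix1 KO. The part of these cells in the values of Timp1 and the other genes was not tested.

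**Figure D5:**
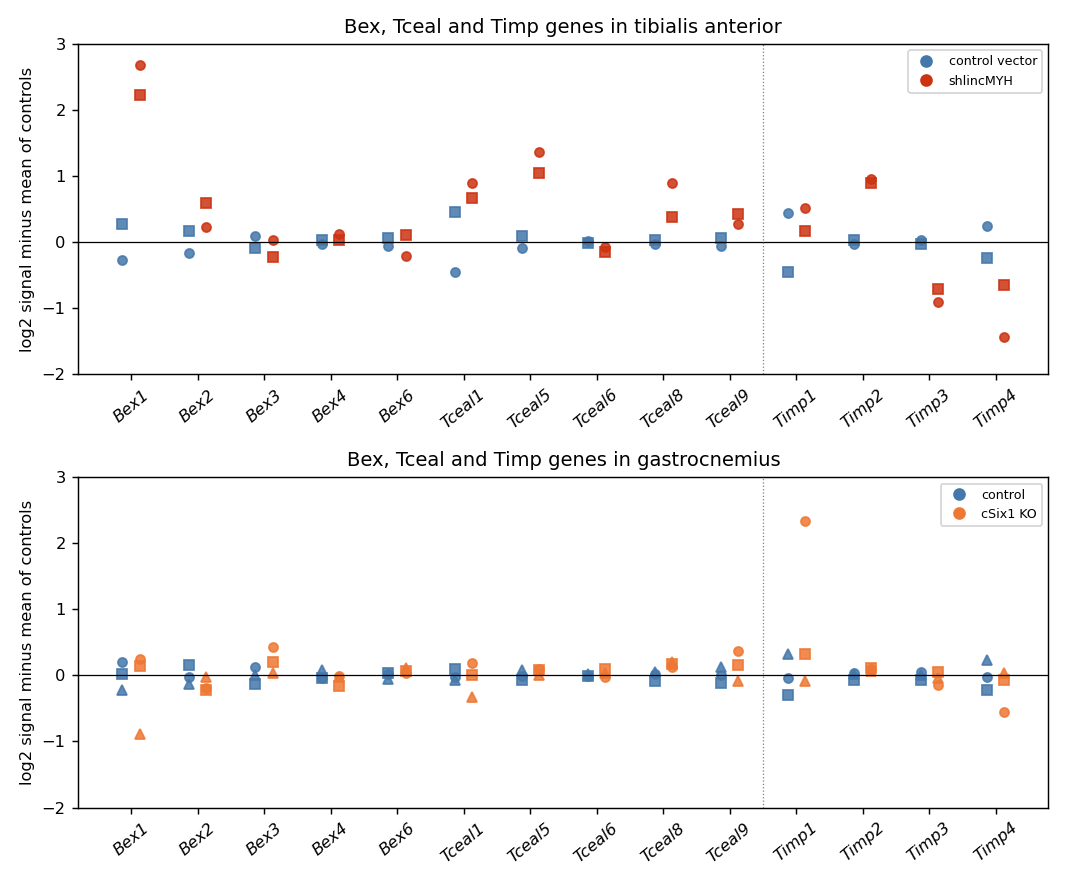
Log2 signal minus the mean of the control arrays for Bex1 and its relatives (left of the dotted line) and for the Timp genes (right), in TA (top) and gastrocnemius (bottom); points are arrays, with circles, squares and triangles for replicates 1, 2 and 3. In TA Tceal5 and Timp2 are higher in both shlincMYH arrays, by 1.21 and 0.92, while Timp3 and Timp4 are lower.

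The keratins and other intermediate filament genes gave no call in either muscle. Krt8, the partner of Krt18 and its nearest measured neighbor on one side, was 6.56 and 6.21 with the control vector and 6.96 and 6.79 with shlincMYH. Both shlincMYH arrays were higher, by 0.49 on average, and the gastrocnemius change was -0.02. Krt19, another type I keratin of simple epithelia, was -0.35 in TA. Nes, a filament of immature and regenerating fibers, had the largest change of the 12 listed genes in TA, 1.16 (adjusted p = 0.431 in limma), which was 0.74 without control replicate 2 and 1.58 without control replicate 1. Des, the main filament of mature fibers, had a change of 0.47 (adjusted p = 0.455 in limma), close to that of Krt8. Epithelial markers were at 4.38 to 4.49 on average in all 4 TA arrays, below the array medians of 5.09 to 5.14. Of the 5 markers, 3 were above 0 and 2 below, from -0.28 for Cdh1, without overlap, to 0.26 for Krt5. Epcam, which defines epithelia, was at 3.27 and 3.60 with the control vector and 3.46 and 3.67 with shlincMYH. Whether these signals were above background was not tested, and neither was the part of epithelial cells in the Krt18 values.

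Satellite cell and myoblast markers had a median change of 0.39 in TA and 0.38 in gastrocnemius. In TA 5 of 6 were above 0, and the array means were 5.60 to 5.85 with the control vector and 6.25 to 6.34 with shlincMYH. Myog, a regulator of fiber differentiation, was 6.31 and 5.16 against 7.19 and 7.48. Mymk, the fusion protein of myoblasts, was 6.06 and 5.78 against 7.36 and 6.64. Pax7, which defines satellite cells, was 5.76 and 5.56 against 5.60 and 5.59. The markers did not move alike: the TA changes were 1.6 for Myog, 1.08 for Mymk and 0.54 for Myod1. They were 0.23 for Cdh15, 0.03 for Myf5 and -0.06 for Pax7. None of the 6 was called in TA, where the adjusted p was 0.423 for Myog and 0.431 for Mymk in limma. In gastrocnemius 2 were called higher, Myog by 0.82 (adjusted p = 0.0395 in limma) and Mymk by 0.76 (adjusted p = 0.0139). Both of these changes were smaller than those of the same genes in TA, where each group had 2 arrays. The part of these cells in the values of Bex1 and the other higher genes was not tested. The fiber markers themselves had array means in TA of 12.22 and 12.30 with the control vector and of 12.14 and 12.06 with shlincMYH. There 7 of 8 were below 0, with a median of -0.17 and a range from -0.34 for the fast-fiber gene Myh4 to 0.02 for Acta1. In gastrocnemius 8 of 8 were below 0, with a median of -0.11.

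Of the genes related in function to Ttc9, Fat3, Maob, Nrk and Ppp1r1a, none was called in TA. Besides Ttc9, its list held 2 relatives and the tropomyosins, the actin-binding proteins of the thin filament. Ttc9b and Ttc9c had changes of -0.07 and 0.27 in TA. Tpm3, the slow-fiber tropomyosin, rose in gastrocnemius by 1.03, from 11.95, 11.58 and 11.96 to 12.86, 12.97 and 12.73 (adjusted p = 0.00892 in limma). That value is from its brightest probe set, and with the mean of its probe sets the change was 0.7 (adjusted p = 0.00834 in limma). In TA Tpm3 was 9.08 and 7.71 against 7.77 and 7.84, where control replicate 1 stood alone. None of the 10 other Fat, Dachsous and planar polarity genes measured was called: Fat1 was 0.35 in gastrocnemius (adjusted p = 0.0557) and -0.03 in TA, and Fat2 was -0.14 and -0.11.

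Maoa, the sister enzyme of Maob and its neighbor on the X chromosome, was 5.85 and 6.04 with the control vector and 6.50 and 6.05 with shlincMYH. Its change of 0.33 was opposite in sign to that of Maob and was not called (adjusted p = 0.66 in limma). Aldh1a1, which oxidizes the aldehydes that amine oxidases produce among other substrates, was lower without overlap in both muscles. Its signal was 9.40 and 9.41 against 8.91 and 8.87 in TA, a change of -0.51, and its change in gastrocnemius was -0.80 (adjusted p = 0.423 and 0.0828 in limma). Aldh2, the mitochondrial member, had a change of 0.34 in gastrocnemius (adjusted p = 0.247).

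The kinases of the Nrk subfamily and the JNK cascade stayed near 0 in TA, from -0.21 for Mapk9 to 0.35 for Jun, with a median of 0.04. In gastrocnemius the JNK genes Mapk9 and Mapk8 were lower without overlap, by changes of -0.39 and -0.26 (adjusted p = 0.0596 and 0.105 in limma). Among the 17 genes of protein phosphatase 1 and glycogen control measured besides Ppp1r1a, 5 were above 0 in TA and 8 in gastrocnemius. Phka1, a regulatory subunit of phosphorylase kinase in muscle, fell in gastrocnemius by 0.50 (adjusted p = 0.0332 in limma), from 12.61, 12.59 and 12.76 to 12.02, 12.24 and 12.19, and its change in TA was -0.52 without a call. Prkar1a, a regulatory subunit of protein kinase A, was 7.78 and 7.68 against 8.38 and 8.41 in TA, a change of 0.66 (adjusted p = 0.306). Ppp1r3c, which brings the phosphatase to glycogen, was 10.46 and 10.76 against 10.24 and 9.67 in TA, a change of -0.65 (adjusted p = 0.517).

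Over the 8 lists, 81 of 92 genes were measured. None was called in TA, where 0.015% of all genes were, and 16 had an unadjusted p under 0.05 in limma, against 1724 of all 19938 genes. In gastrocnemius Tpm3 was called higher and Phka1 lower, where 1.74% of all genes were called. There 25 of the 81 had an unadjusted p under 0.05 in limma, against 2979 of all genes. In the difference 2 were called, Tceal5 and Timp2, where 0.145% of all genes were. Tceal5 was no longer called with the replicate number as a block (adjusted p = 0.081) or without any 1 of 6 of the 10 arrays, and Timp2 likewise with the block (adjusted p = 0.0891) or without any 1 of 5. With only the gastrocnemius arrays of high Xist, neither was called (adjusted p = 0.0965 and 0.0929). Tpm3 lost its call without cSix1 KO replicate 2 (adjusted p = 0.0502), and Phka1 without any 1 array other than cSix1 KO replicate 3 (adjusted p of 0.0816 to 0.115), with the replicate block (adjusted p = 0.0708) and among the arrays with high Xist (adjusted p = 0.0653).

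The 32 measured genes nearest to the 8 genes, 2 on each side, had a median change of -0.04 in TA and 0.02 in gastrocnemius. Tceal5 was called in the difference between the comparisons and Mkrn2, beyond Timp4, in gastrocnemius, with a change of -0.36 (adjusted p = 0.0429 in limma), a call that no longer held with the replicate block (adjusted p = 0.115), with the pattern of Xist as a block (adjusted p = 0.054) or without any 1 of the 6 arrays. Timp4 lies inside the span of Syn2, a synapsin gene, whose change in TA was 0.32. Pparg, the adipocyte regulator on its other side, was -0.49 in TA and 0.34 in gastrocnemius, and Pde1b, a phosphodiesterase gene that ends 223 bases from Ppp1r1a, was -0.32 in TA. None of these 3 was called.

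The genes whose pattern was most like that of a member were found over the 10 arrays, after the mean of the controls of the same muscle was subtracted from each, by Pearson's r. The arrays share 2 muscles and a shift with shlincMYH, so these values are a description. For Nrk they were Des, Timp2 and Tspan3 (r of 0.987 each), and for Ttc9 the first was Chrna1, the alpha subunit of the muscle acetylcholine receptor (r = 0.986), with changes of 1.52 in TA and 0.91 in gastrocnemius. For Timp4 they were Adgrf5, Zfp334 and the water channel gene Aqp1 (r of 0.982, 0.978 and 0.97), with changes of -0.96, -0.32 and -0.85 in TA. Of these, Adgrf5 and Aqp1 are expressed by endothelium. For Bex1 the first was Nip7 (r = 0.982), for Krt18 Polr2f (r = 0.981), for Fat3 Mall (r = 0.971), for Maob Nlrp6 (r = 0.972) and for Ppp1r1a Bahcc1 (r = 0.981), with TA changes between -0.27 and 0.62.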

How the data were processed

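Gene expression of 10 mouse muscle samples was measured on Mouse Gene 1.0 ST arrays (Affymetrix). The authors deposited RMA-normalized log2 signals, 1 per probe set and array, for 35556 probe sets; the submitters' processing notes name RMA and Partek, and their versions and the annotation release were not given in the sources used here. Labels and methods differ on age at transfection, RNA amount and labeling kit. RMA compresses very dim and very bright signals.

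Gene names came from the platform annotation, in which 21789 probe sets had 1 symbol, 1621 several and 12146 none. A gene with several probe sets (999 of 19938) was read from its brightest probe set over the 10 arrays. Changes are differences of group means, and spread is the pooled SD. Genes were tested with limma 3.58.1 in R 4.3.3, per muscle and for the difference between the 2 comparisons, with Benjamini-Hochberg adjustment over all genes and a threshold of 0.05. The difference was fitted over all 10 arrays with 1 variance per gene for both muscles. Its standard error for TA therefore rests in part on the gastrocnemius arrays. The number of arrays limits the precision.

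Named were the 8 genes with all probe sets. In each list of related genes, those called were named, or otherwise the 2 with the largest limma statistic. The 2 nearest measured genes on each side and the 3 most similar patterns were also taken. Krt19, Bex2, Ngfr, Tceal1, Timp1, Timp3, Prkar1a, Ppp1r3c, Ttc9b, Ttc9c, Jun and the markers were added after their values were seen. The 8 genes and the lists were chosen with earlier results of these data known. The columns for 10 arrays were all used, and 0 columns had no sample. The gene deleted in cSix1 KO is not reported here.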

Additional observations from a re-analysis of the deposited data

Results flagged for a closer look

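Tceal5 was raised for a closer look because its changes in the 2 muscles differed in a test of the difference itself: the change in TA minus that in gastrocnemius was 1.14 (limma adjusted p = 0.0193), and both shlincMYH arrays were above both controls. The test used 1 variance per gene over both muscles. The call was lost with the replicate block (adjusted p = 0.081), with only the gastrocnemius arrays of high Xist (adjusted p = 0.0965) and without any 1 of 6 of the 10 arrays.

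Timp2 met the same test, with a difference of 0.84 (limma adjusted p = 0.0193), and was higher in both shlincMYH arrays. Its call was lost in the same settings (adjusted p = 0.0891 and 0.0929) and without any 1 of 5 arrays.

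Ppp1r1a was raised because every shlincMYH array was below and every cSix1 KO array above its controls. The difference of the 2 changes was -1.63. It was not tested, since both changes were used to choose the gene.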

How the results depend on the processing

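The 8 genes kept the sign of their TA change under quantile normalization, median centring, the mean over probe sets, the replicate block and without each array; the mean over 15 probe sets moved Fat3 from -1.06 to -0.30. In gastrocnemius Bex1 and Maob changed sign among the arrays with high Xist. The count of genes called in TA was 3, and 10 after median centring, 131 with all 10 arrays in 1 fit, 5 with the replicate block, and 0 by the methods' t-test after adjustment (1383 at an unadjusted p under 0.05). Without each array in turn it was 0 to 0, with the lone array assumed to vary like the others. In gastrocnemius the count was 347, and 186 with the replicate block, 543 with an intensity trend and robust prior, 989 with array weights, 4 by the methods' t-test (2603 at an unadjusted p under 0.05), and 51 to 560 without each array, lowest without cSix1 KO replicate 2 and highest without cSix1 KO replicate 3. For the difference it was 29, and 16 among genes above the median signal, 48 with the trend and robust prior, and 6 to 100 without each array. The deviations of same-numbered arrays had r of 0.185 in TA and of 0.216, -0.137 and 0.084 in gastrocnemius. With 2 arrays a group, same-numbered and other TA arrays can only give 1 size of r with opposite signs (0.185 and -0.185). That value cannot decide whether the TA numbers are pairs. No source states that they are, so the main fit took none, and the replicate block is the alternative. The fits with the pattern of Xist as a block or with high Xist alone were chosen after seeing the data and called 405 and 475 genes in gastrocnemius and 31 and 24 in the difference. The cause of these shifts was not tested.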
